A study of Arabidopsis thaliana with 9 samples.

Results

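The comparison described here sets 6 arrays of Arabidopsis thaliana seedlings carrying a mutation in the CDK8 module of Mediator against 3 arrays of wild-type seedlings, and it uses all 9 arrays of the series. The 6 mutant arrays were 3 of cct-1 and 3 of gct-2, and the wild type was Col-0, which is also the background given for the mutants. CCT and GCT are the Arabidopsis MED12 and MED13 genes. The arrays were chosen by the genotype in their labels and by no measured value. Each array held RNA from the above-ground portions of a pool of 75 to 100 soil-grown seedlings, and the 3 arrays of a genotype were biological replicates. All seedlings grew in 16 h of light and 8 h of dark at 23 C. Seedlings were taken at a matched stage, with leaf primordia 1 mm long, which cct-1 and gct-2 reached at 9 days and wild type at 7 days. A difference between the mutants and wild type therefore cannot be told apart from 2 days of age. Each mutant was represented by a single allele, and seedlings without cotyledons or leaf primordia had been left out, so the most affected mutant plants may not be represented.

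Mediator is the large protein complex that passes signals from DNA-bound transcription factors to RNA polymerase II. MED12 and MED13, together with the kinase CDK8 and its cyclin, form a module that binds Mediator reversibly and can repress or activate transcription. In Arabidopsis, loss of either subunit is known to delay transitions in embryo patterning, vegetative phase change and flowering. The 2 mutants thus remove neighbouring parts of one module, and their mean against wild type is a measure of what they have in common. A mean can also hide a difference between its parts, so cct-1 minus gct-2 was tested in the same fit.

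The deposited log2 values had array medians between 7.7 and 7.76. The 40th percentile of each array, between 6.83 and 6.87, served as a filter on dim signals, and a probe set had to exceed it on at least 3 arrays to be tested. This left 10395 probe sets, and 5492 of them (52.8%) carried 1 gene name. Above-ground tissue was checked with marker genes, few of which were named on the table. RCA, the activase of Rubisco in mesophyll, was near the top of the scale in both mutants and wild type, with a difference of 0.05 (log2). Of 2 epidermis, trichome and guard cell markers tested, the stomatal signal peptide gene STOMAGEN differed by -0.02. The other, FMA, was called lower in the mutants and is described with the cell division genes below. Of 2 root markers tested, SCN1 differed by -0.05, and PYK10 is described with its group below. No vascular, meristem or embryo marker was tested, and CCT and GCT were not analysed here, so the mutated genes could not serve as a check of the labels. The 3' minus 5' difference of the ubiquitin control probe sets, a sign of RNA integrity, was 1.47 to 1.69 on the mutant arrays and 1.79 to 1.86 on the wild-type arrays (exact permutation test, 2-sided, p = 0.0238, the smallest possible, and 0.0714 after adjustment over 3 controls). The differences for actin (-0.03, exact p = 0.762) and GAPDH (0.07, exact p = 0.262) overlapped between the groups. The part of RNA integrity in the results below was not tested.

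The mutants differed from wild type at 1689 probe sets, 16.2% of those tested, at a Benjamini-Hochberg adjusted p under 0.05 in limma. Of these, 862 (8.29%) were higher and 827 (7.96%) were lower in the mutants, and the median difference over all tested probe sets was 0.00. Without adjustment, 31.7% had a p under 0.05. Most changes were modest. The median fold of the called probe sets was 1.41 for those higher and 1.45 for those lower. At least 2-fold differences were found at 93 higher and 143 lower probe sets, and at least 4-fold differences at 17 higher and 42 lower ones, so the large changes were more often decreases. The 6 mutant arrays and the 3 wild-type arrays did not overlap at 1352 of the called probe sets, 666 higher and 686 lower. Over all tested probe sets, called or not, the mutant arrays lay wholly above wild type at 8.82% and wholly below at 9.42%. With 3 wild-type arrays the number of calls depended on them. Without wild-type replicate 2 the count was 766, and without wild-type replicate 1 the number lower was 476.

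**Figure D1:**
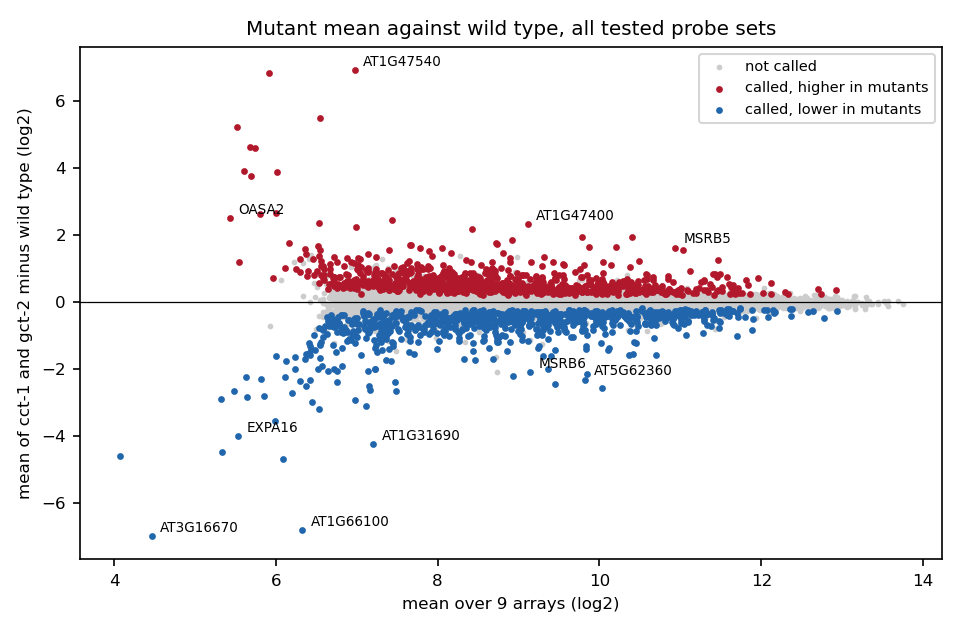
Each point is one of the 10395 tested probe sets, with its mean log2 level over 9 arrays on the x axis and the mean of cct-1 and gct-2 minus wild type (log2) on the y axis. The 862 red points were called higher and the 827 blue points lower in the mutants, and the points with the largest differences lie at the left, where one side of the comparison was under the filter.

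By named gene, represented by its brightest probe set, 889 of 5466 were called (16.3%), 426 higher (7.79%) and 463 lower (8.47%). Called genes lay on every nuclear chromosome, at 14.4% of the tested genes of chromosome 5 and 19% of those of chromosome 3. The share fell with the level of expression, at 22% in the dimmest of 5 equal bins of genes and 10.6% in the brightest. A large part of the extreme differences came from genes near the filter. Among the 9226 probe sets above the filter on all 9 arrays, 1335 were called (14.5%), with 36 higher and 53 lower by at least 2-fold. Genes measured on both sides are given first for that reason. Where RefSeq gives only a locus identifier, no role is stated.

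Among genes measured on all arrays, AT1G47400 showed the largest increase. Its level (log2) was 10.58, 9.78 and 9.14 on the cct-1 arrays, 9.76, 9.80 and 10.28 on the gct-2 arrays, and 7.70, 7.24 and 7.75 on the wild-type arrays. Every mutant array was above every wild-type array, and the mutant mean was 5.00-fold higher (log2 difference 2.32, SE 0.28, adjusted p = 0.000896). AT1G62290 was 3.78-fold higher, at 10.38, 10.13 and 10.09 in cct-1, 10.46, 10.89 and 10.57 in gct-2, and 8.70, 8.45 and 8.36 in wild type (adjusted p = 2.88e-05). AT1G65370 rose 3.62-fold, AT3G57020 3.32-fold and AT5G57785 3.14-fold. The spread among mutant arrays was wide for AT1G47400, over 1 log2 unit, and narrow for AT5G57785, whose mutant arrays all lay between 10.61 and 10.88 against 8.89 to 9.51 in wild type.

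MSRB5 and MSRB6 moved in opposite directions. They encode methionine sulfoxide reductases of the B type, enzymes that repair oxidised methionine in proteins, and they are neighbours on chromosome 4. MSRB5 stood at 11.33, 11.60 and 11.50 in cct-1, 11.50, 11.58 and 11.33 in gct-2, and 10.19, 9.67 and 9.71 in wild type, a 3.07-fold increase (log2 1.62, SE 0.13, adjusted p = 9.98e-05). MSRB6 stood at 8.63, 8.05 and 7.87 in cct-1, 9.13, 8.53 and 8.43 in gct-2, and 10.78, 10.51 and 10.34 in wild type, a 4.29-fold decrease (adjusted p = 0.000312). Neither gene's mutant arrays overlapped with wild type, and the mutants were not called apart for either. The other tested methionine sulfoxide reductase genes, MSRB3 and MSRA5, differed by 0.08 and 0.06 (log2) and were not called. The probe sets of MSRB5 and MSRB6 carry no suffix that marks shared sequence.

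The decreases among genes measured on all arrays were led by AT5G62360, which fell 5.01-fold. Its level was 9.01, 8.46 and 8.70 in cct-1, 9.32, 9.52 and 9.31 in gct-2, and 11.39, 11.61 and 11.13 in wild type (log2 -2.32, SE 0.14, adjusted p = 2.19e-05). AT1G67865 fell 4.42-fold, and all its mutant arrays lay between 8.89 and 9.33 against 11.15 to 11.42 in wild type. CML30, a calmodulin-like protein of the family that binds calcium, fell 3.37-fold, at 7.91, 7.94 and 8.03 in cct-1, 7.58, 7.84 and 7.96 in gct-2, and 9.69, 9.53 and 9.66 in wild type (adjusted p = 1.21e-05). All 3 genes separated the mutants from wild type by well over the spread between arrays. AT4G38950, AT2G42110 and AT3G05730 fell by 3.25-, 3.08- and 3.02-fold. The remaining genes of the 12 with the largest decreases fell between 2.63- and 2.99-fold, and AT1G04800 among them had an adjusted p of 0.0571 without wild-type replicate 2.

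**Figure D2:**
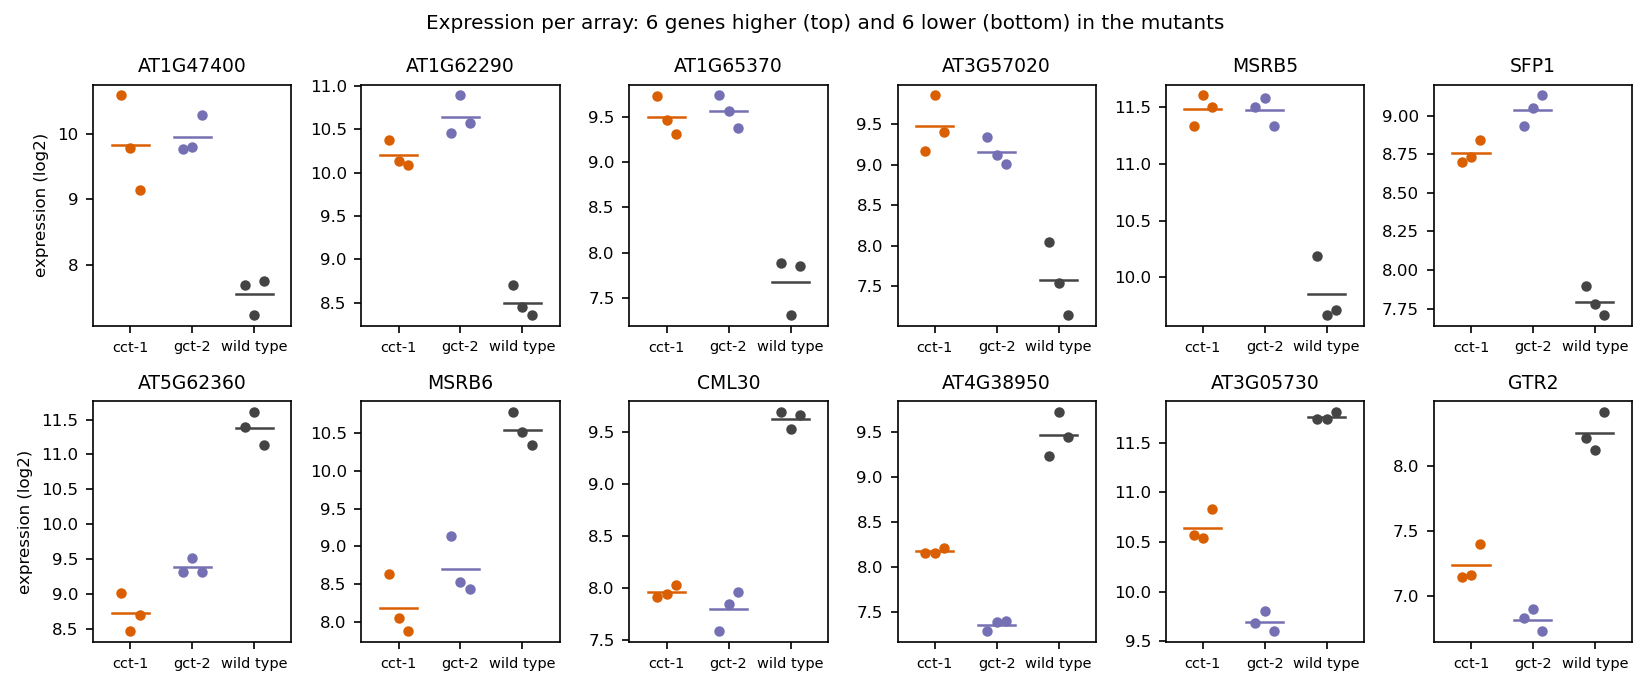
Points are the log2 expression values of single arrays of cct-1, gct-2 and wild type, and horizontal lines are the means of 3 arrays. For the 6 genes of the top row every mutant point lies above every wild-type point, as for AT1G47400, and for the 6 genes of the bottom row every mutant point lies below, as for MSRB6.

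The rest of the 12 largest increases were between 2.14- and 2.52-fold. They included JAL22, a jacalin-related lectin, AT1G73600, AT1G75280, AT1G17860 and SFP1. SFP1, a monosaccharide transporter of the ERD6-like family, was at 8.70, 8.73 and 8.84 in cct-1, 8.93, 9.05 and 9.13 in gct-2, and 7.90, 7.78 and 7.71 in wild type (2.14-fold, adjusted p = 5.06e-05). Its chromosome 5 neighbour SFP2 also rose, with wild type under the filter on every array and a fold of at least 1.23 (means 7.15 in the mutants and 6.33 in wild type, adjusted p = 0.00196). AT5G19240 was 2.27-fold higher in the mutants, with wild-type arrays from 7.40 to 9.24, and its adjusted p of 0.0388 was 0.109 without wild-type replicate 2.

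Some genes were under the filter on every array of one side, so that only a lower bound of the fold can be given. The bound divides the mean of the brighter side by a mean in which each dim value is raised to its array's filter. The same bound is given below where only some arrays of a side were under the filter. Wild type lay under the filter on all 3 arrays at 106 of the probe sets called higher, and the mutants on all 6 arrays at 65 of those called lower. AT1G47540 read 10.64, 8.58 and 7.74 in cct-1, 8.19, 10.84 and 9.70 in gct-2, and 2.27, 2.13 and 2.70 in wild type. It was at least 5.41-fold higher in the mutants (adjusted p = 0.000331), with a spread of over 3 log2 units among the mutant arrays and none near wild type. Its neighbour AT1G47530 was 1.31-fold higher (adjusted p = 0.0104). After AT1G47540, the largest bounds were, in order, those of AT1G13650 (adjusted p = 0.00166), AT3G02480 and AT3G56290, which is described below with the differences between the mutants. AT3G02480 was at least 1.85-fold higher, with 4 of 6 mutant arrays above the filter (adjusted p = 0.0439, and 0.167 without wild-type replicate 2). The call of AT3G02480 was lost in 7 of the 9 fits without 1 array. AT5G03230, AT2G16790, AT2G29320 and AT5G50340 followed, at least 1.71-, 1.64-, 1.54- and 1.52-fold higher.

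Bounds were larger among the decreases. AT1G66100 read 3.52, 3.29 and 2.68 in cct-1, 6.05, 4.51 and 4.29 in gct-2, and 11.09, 10.84 and 10.68 in wild type, at least 16.2-fold lower (adjusted p = 1.21e-05). AT1G31690 read at most 6.42 in cct-1 and 6.44 in gct-2, against 10.09, 9.95 and 10.08 in wild type, and was at least 9.10-fold lower (adjusted p = 8.26e-05). Both genes were thus bright in wild type and under the filter in all 6 mutant pools. AT3G16670 was at least 4.84-fold lower, with all mutant arrays between 1.75 and 2.89 and all wild-type arrays between 9.00 and 9.26 (adjusted p = 8.08e-07). AT1G19380, AT3G16530, AT1G62510, AT3G05640 and AT5G33370 were lower by at least 4.21-, 4.19-, 3.29-, 3.19- and 2.84-fold. The smallest p of all named genes belonged to AT2G43590 (adjusted p = 1.34e-07), which averaged 2.53 in the mutants and 7.15 in wild type and was at least 1.23-fold lower, its wild-type level being only just above the filter. These low genes were above the filter on the 3 wild-type arrays alone, so they could not be tested when a wild-type array was left out. They were called in each of the other 6 fits without 1 array. Those 6 fits all kept the 3 wild-type arrays through which these genes passed the filter, so they add no support to the calls.

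**Figure D3:**
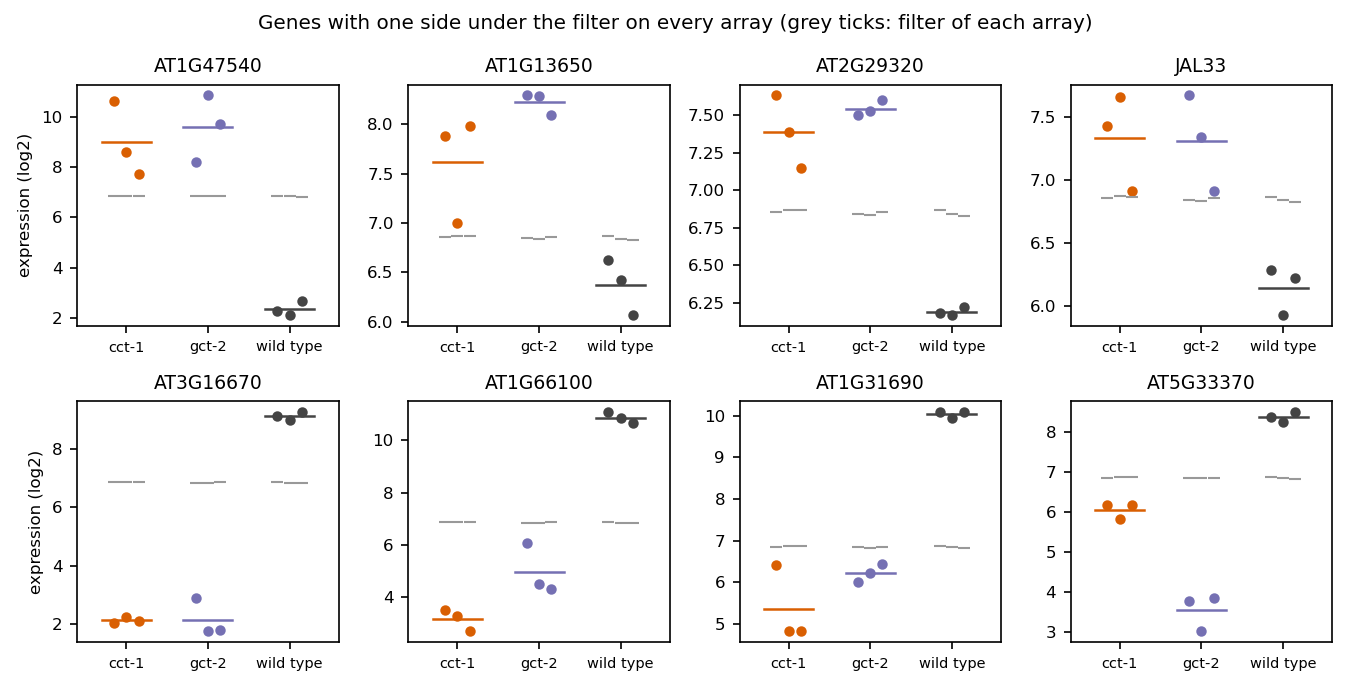
Points are log2 values of single arrays, horizontal lines are means of 3 arrays, and grey ticks mark each array's filter. The top row shows genes with wild type under the filter on every array, such as AT1G47540, and the bottom row genes with both mutants under it, such as AT3G16670 at 1.75 to 2.89 against 9.00 to 9.26 in wild type.

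Gene lists were examined by counts, beside the 16.3% called among all tested genes and a median difference of 0.00. The lists shared few genes with this table, and 252 listed genes were tested, with 25 called higher and 30 lower. Of 63 tested genes encoded in the plastid genome, 4 fell and none rose (6.35% called), and the list's median was -0.11. A difference below 0 was found for 49 of the 63, a larger share than the 49.1% among all tested genes. The 4 were rbcL, the large subunit of Rubisco, petA and petD, subunits of the cytochrome b6f complex, and psbE, of photosystem II. rbcL was 11.25, 10.84 and 11.01 in cct-1, 10.90, 11.16 and 11.42 in gct-2, and 11.89, 11.88 and 11.62 in wild type (1.63-fold lower, adjusted p = 0.00791). Leaving out wild-type replicate 2 gave petD and petA adjusted p of 0.11 and 0.119. Of 10 nuclear photosynthesis genes only LHCB4.3, a minor antenna protein of photosystem II, was called, 2.08-fold lower (adjusted p = 0.00439), and the other 9 were not.

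Cell wall genes were called in both directions, 2 higher and 3 lower of 15. The expansin EXPA16, one of the proteins that loosen walls during growth, was at 4.53, 3.77 and 4.72 in cct-1, 3.05, 4.53 and 4.55 in gct-2, and 8.38, 7.93 and 8.32 in wild type. It was at least 2.56-fold lower (adjusted p = 0.000162), with the mutants under the filter throughout. EXLA2, an expansin-like gene, was at least 4.05-fold lower, with 2 of 6 mutant arrays above the filter, and its adjusted p of 0.0133 became 0.0571 without wild-type replicate 2. XTH16, a xyloglucan-modifying enzyme, fell 1.70-fold (adjusted p = 0.00803). XTH32, of the same family, was 1.81-fold higher and the expansin EXPA15 at least 1.68-fold higher. Those increases were less secure, since leaving out wild-type replicate 2 raised their adjusted p to 0.108 and 0.144.

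Among 6 cell division genes, the Aurora kinase genes AUR1 and AUR2, which act in spindle and cell plate formation, fell by 0.37 and 0.47 (log2, adjusted p = 0.0304 and 0.00811). AUR3 differed by -0.46 and was not called (adjusted p = 0.0545), and AUR1 had an adjusted p of 0.119 without wild-type replicate 2. FMA, a transcription factor that ends division in the stomatal lineage, was at least 1.75-fold lower, with 2 of 6 mutant arrays above the filter (adjusted p = 0.00942, and 0.0551 without wild-type replicate 2). STOMAGEN, which acts in the same lineage, is given above at -0.02. In bulk seedlings fewer cells of a type and less RNA per cell cannot be told apart.

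Few regulators of developmental timing and leaf identity were on the table. Of 4 flowering and phase change genes, SMZ, an AP2-type repressor of flowering and target of miR172, was at least 1.74-fold higher, at 8.29, 7.76 and 7.43 in cct-1, 8.13, 7.99 and 7.92 in gct-2, and 7.58, 6.96 and 6.11 in wild type. A cct-1 array lay below the highest wild-type array, and the adjusted p of 0.0413 was 0.115 without wild-type replicate 2. Its paralog SNZ averaged 7.53 over the mutants and 7.53 in wild type. YAB5, of the YABBY family that marks the lower side of leaves, rose 1.32-fold (adjusted p = 0.0144, and 0.075 without wild-type replicate 2). It was the only call among 4 tested homeobox, YABBY and leaf polarity genes. The other 3 lay below 0, with YAB3 and PHV at -0.07 and -0.14 and the lowest at -0.41 (log2). Among genes matched to the lists by symbol or synonym, none of 2 seed storage or late embryogenesis genes, 2 seed regulators and 3 Mediator subunits was called. Genes of these kinds without a matching symbol or synonym were not counted. The subunits MED31, MED19A and AT2G22370 differed by -0.25, -0.10 and 0.17.

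Hormone genes were represented by few members. WES1, an enzyme that conjugates auxin to amino acids, averaged 6.75 in the mutants and 5.01 in wild type (adjusted p = 0.00656). Wild type was under the filter throughout and 3 of 6 mutant arrays above it, so no fold is given. RR16, a response regulator induced by cytokinin, fell 1.85-fold (adjusted p = 0.0118, and 0.0503 without wild-type replicate 2). RTE1, a regulator of the ethylene receptor ETR1, was at least 1.33-fold higher (means 7.26 in the mutants and 6.72 in wild type, adjusted p = 0.00556). The gibberellin receptor gene GID1A and the brassinosteroid-responsive gene BRH1 were called at 0.26 and -0.34 (log2), and leaving out wild-type replicate 2 gave them adjusted p of 0.111 and 0.131.

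Further families came into view in the results and were chosen after their values were seen. A choice made on the values raises the share of called members, so no conclusion is drawn from these shares. For sulfur and methionine metabolism 13 genes were tested, and 4 rose and 4 fell, MSRB5 and MSRB6 among them. That is 61.5% called, against 16.3% of all tested genes. MMT, which makes S-methylmethionine, rose 1.53-fold, at 8.40 to 8.60 on the 6 mutant arrays and 7.80 to 7.91 in wild type (adjusted p = 0.000734). ARD4, of the methionine salvage cycle, rose 1.38-fold (adjusted p = 0.00656). OASA2, an O-acetylserine (thiol) lyase family gene, averaged 6.27 in the mutants and 3.77 in wild type, with only the gct-2 arrays above the filter, so no fold is given (adjusted p = 0.000126). HMT-1, a homocysteine methyltransferase, was at least 1.85-fold lower, with 1 of 6 mutant arrays above the filter (adjusted p = 0.000251). The sulfate-assimilation genes APS3, an ATP sulfurylase, and SIR, sulfite reductase, fell 2.19- and 1.48-fold. APS3 was 10.20, 10.11 and 9.07 in wild type, and its adjusted p of 0.0135 was 0.0736 without wild-type replicate 2.

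PYK10, a beta-glucosidase of the ER body, a compartment used in defence, and the jacalin-related lectins that associate with it rose in the mutants. PYK10 was 12.28, 12.31 and 12.12 in cct-1, 12.27, 12.18 and 12.07 in gct-2, and 11.52, 11.33 and 11.61 in wild type (1.64-fold, adjusted p = 0.000858). JAL22 rose 2.52-fold and JAL34 1.79-fold, and JAL33 was at least 1.39-fold higher. The ER body gene NAI2 differed by 0.03 and was not called, so 4 of 5 members rose (80%, against 16.3% of all tested genes). This group was chosen after its values were seen, so no conclusion is drawn from that share. PYK10 is strongest in roots and was on the root marker list, where the other tested marker, SCN1, had a difference of -0.05. The part of root tissue in these increases was not tested. Of the 7 glucosinolate and myrosinase genes the lectins were the 3 that rose, and GTR2, a glucosinolate transporter, was at least 2.29-fold lower, with 4 of 6 mutant arrays above the filter (adjusted p = 7.84e-05).

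**Figure D4:**
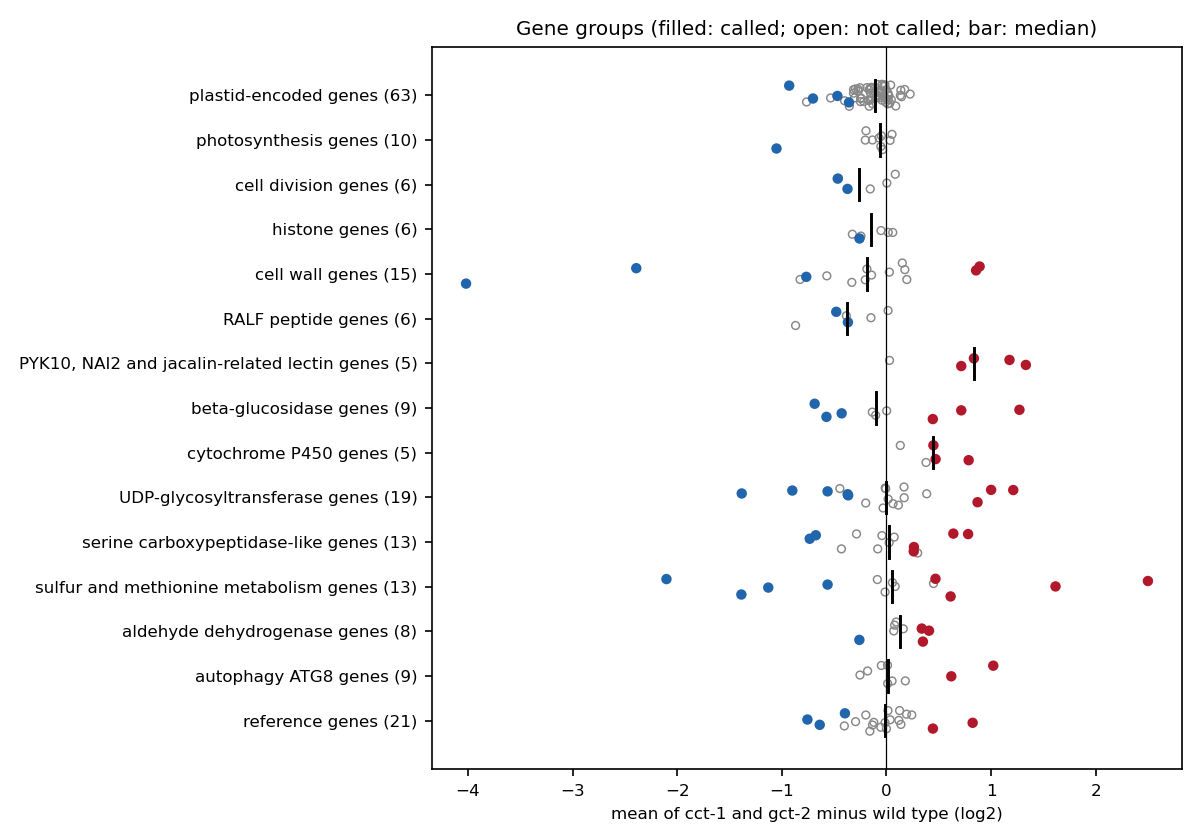
Each point is a tested gene, placed by the mean of cct-1 and gct-2 minus wild type (log2) on the x axis, in 15 gene groups with the number tested in brackets. Filled points were called, red higher and blue lower in the mutants, open points were not, and the bar is the median, which was -0.11 for plastid-encoded genes and 0.84 for the PYK10 and lectin group. The RALF, PYK10 and lectin, beta-glucosidase, UDP-glycosyltransferase, serine carboxypeptidase-like, sulfur and methionine, aldehyde dehydrogenase and ATG8 groups were chosen after their values were seen. Their medians are therefore not comparable with those of the other lists.

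Members of other enzyme families went separate ways. The ATG8, UDP-glycosyltransferase and serine carboxypeptidase-like families were chosen after their values were seen. Over all tested genes 16.3% were called. Of 9 genes for ATG8, the ubiquitin-like protein of autophagy membranes, ATG8B rose 2.03-fold (8.89 to 9.16 on the mutant arrays and 7.78 to 8.17 in wild type, adjusted p = 0.000269) and ATG8G was at least 1.47-fold higher (adjusted p = 0.0103). The other 7 were not called (22.2% of the 9 called), and the median of the 9 was 0.01. Among 19 UDP-glycosyltransferase genes, which attach sugars to hormones and secondary metabolites, 3 were higher and 5 lower (42.1% called), with a median of -0.01. UGT78D2, which glycosylates flavonoids, was 1.83-fold higher, mainly through cct-1, at 9.43, 9.31 and 9.37 in cct-1, 8.64, 8.64 and 8.11 in gct-2, and 7.78, 7.95 and 8.40 in wild type. The gct-2 arrays of UGT78D2 overlapped with wild type, and with the mutants treated as 1 group its call was lost (adjusted p = 0.0873). UGT85A4 was at least 2.26-fold lower, with 2 of 6 mutant arrays above the filter. Of 13 serine carboxypeptidase-like genes 4 were higher and 2 lower (46.2% called). scpl35 fell 1.60-fold (adjusted p = 0.000126) and SCPL27 was at least 1.51-fold higher (adjusted p = 0.00105). The 3 called cytochrome P450 genes of 5, CYP71B6, CYP71B5 and CYP71B34, were all higher, by 1.72-, 1.39- and 1.37-fold, and the last had an adjusted p of 0.153 without wild-type replicate 2. Of 21 reference genes 2 were higher and 3 lower, including the ubiquitin-conjugating enzyme gene UBC18, 1.56-fold lower (adjusted p = 0.000628).

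At 1465 of the 1689 probe sets called against wild type the mutants were not called apart. The mutant and wild-type arrays overlapped at 337 of the 1689. The mutants differed from each other at 664 probe sets (6.39% of those tested), 332 higher in cct-1 and 332 lower (3.19% each). Of the 1689 probe sets called against wild type 224 (13.3%) were also called between the mutants. By their means, both mutants lay on the same side of wild type in 196 of these, with gct-2 farther from it at 121 and cct-1 at 75, and in 28 they lay on opposite sides. The strictest set, called against wild type, with all 6 mutant arrays beyond wild type and no call between the mutants, held 1252 probe sets, 628 higher and 624 lower. A missing call does not show that the mutants were equal, since the median standard error of cct-1 minus gct-2 was 0.111.

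Some genes named for their difference between the mutants were on the same side of wild type in both. AT5G33370 read 6.16, 5.83 and 6.16 in cct-1 and 3.78, 3.02 and 3.85 in gct-2, against 8.37, 8.23 and 8.49 in wild type, but all 6 mutant values were under the filter. AT1G69760, at 7.35, 7.71 and 7.39 in cct-1, 6.08, 6.21 and 6.31 in gct-2, and 8.99, 8.59 and 8.22 in wild type, was lower in both and lowest in gct-2, where it was under the filter (cct-1 minus gct-2 1.28, adjusted p = 0.00709). AT3G56290 was higher in both, at 8.69, 8.06 and 8.67 in cct-1, 7.14, 6.91 and 6.63 in gct-2, and 6.35, 6.30 and 6.42 in wild type (1.58, adjusted p = 0.00333). Wild type was under the filter for AT3G56290, as was 1 gct-2 array. AT2G15960 was lower in both mutants and lower in cct-1 than in gct-2 (-1.23, adjusted p = 0.0313). With the mutants treated as 1 group, the calls of AT3G56290 and AT2G15960 against wild type were lost (adjusted p = 0.0959 and 0.0571).

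For a few genes the mean described neither mutant. HYH, a bZIP transcription factor close to the light regulator HY5, was 9.12, 8.83 and 8.93 in cct-1, 7.71, 7.18 and 6.93 in gct-2, and 7.71, 7.30 and 7.25 in wild type. The call of HYH against wild type (1.62-fold, adjusted p = 0.0255) thus came from cct-1, and gct-2 overlapped with wild type (cct-1 minus gct-2 1.69, adjusted p = 0.00356). ICDH was 7.62, 7.21 and 7.46 in cct-1, 5.88, 5.49 and 6.22 in gct-2, and 7.81, 7.63 and 7.32 in wild type, so that its lower mean came from gct-2, under the filter throughout (1.57, adjusted p = 0.00429). The calls of HYH and ICDH against wild type had adjusted p of 0.405 and 0.222 when the 2 mutants were treated as 1 group with no genotype term. Of the 440 probe sets called between the mutants and not against wild type, 387 had the means of the mutants on opposite sides of the wild-type mean. Choosing probe sets with a difference between the mutants and no call for their mean favours such positions, so no conclusion is drawn from that count.

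**Figure D5:**
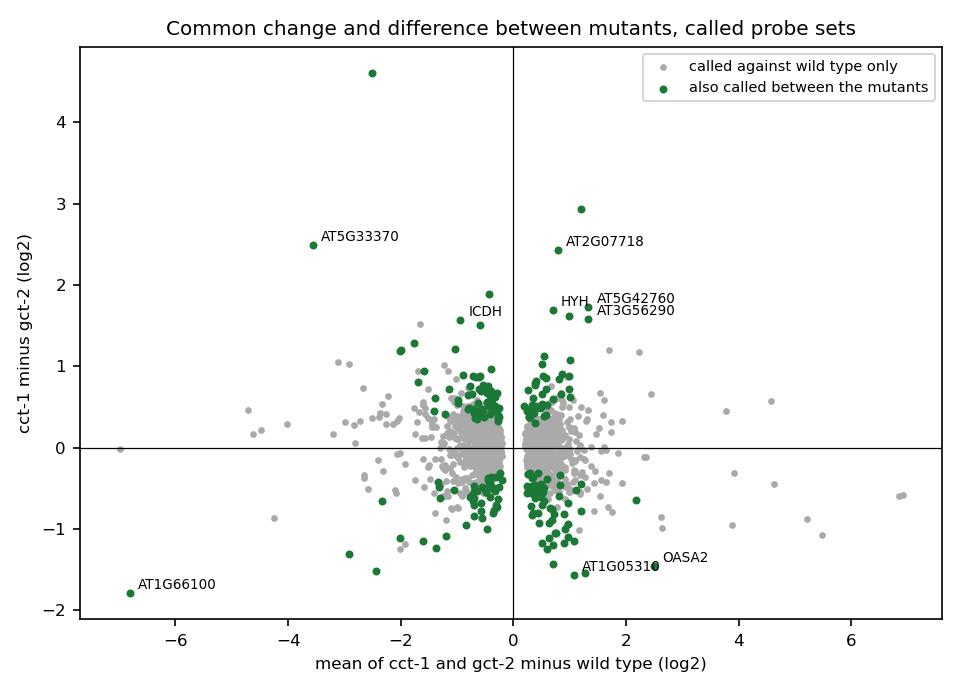
Each point is one of the 1689 probe sets called against wild type, with the mean of cct-1 and gct-2 minus wild type (log2) on the x axis and cct-1 minus gct-2 (log2) on the y axis. The 224 green points were also called between the mutants, with HYH, ICDH and AT5G33370 above the horizontal line and OASA2 and AT1G66100 below it.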

How the data were processed

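Above-ground seedlings of cct-1, gct-2 and wild type were profiled on Affymetrix arrays, 3 per genotype, with cDNA amplified from 50 ng of RNA per the labels' protocols. The deposited values are log2 expression values per probe set. That scale was read from the values themselves. GCRMA and MAS5 are named, with no role or version, per the submitters' processing notes. How the 16863 deposited probe sets were chosen is unknown here.

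Contrasts were tested with limma 3.58.1 (lmFit and eBayes) in R 4.3.3, from a single fit of the 3 genotype means over the 9 arrays. The contrasts were the mean of cct-1 and gct-2 minus wild type, and cct-1 minus gct-2, with Benjamini-Hochberg adjustment over the 10395 probe sets tested. The 37 control probe sets and those under the filter were left out. Precision is limited by the number of arrays. The mean of the mutants minus wild type had a median standard error of 0.0962. The fit was tested on simulated data.

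Genes were named from the platform annotation through RefSeq (TAIR10.1). Of the probe sets 9335 had 1 gene, 351 several and 7140 none, and those with several or none stayed unnamed. Of the gene identifiers 9291 matched RefSeq and 44 did not. A gene was represented by its brightest tested probe set.

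Genes named were the 12 each way with the largest difference among those above the filter on all arrays with no overlap between groups, the 8 each way with the largest lower bound, up to 3 called members each way of each of 37 lists, 5 each way between the mutants, and 5 each way with the smallest p. The members of the lists were matched by symbol or synonym, and matches by letters alone were removed by hand. The comparison and the lists were chosen with earlier results of these data known, and 9 further families after their values were seen.

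Replicate numbers recur in each genotype. Deviations from genotype means of same-numbered arrays correlated between -0.268 and 0.0881 over 9 pairs, so the numbers were not taken to pair the arrays. Alternatives were no filter and a 60th percentile filter, the replicate number as a block, the mutants as 1 group, leaving out each array, array weights, quantile normalization, a robust variance with an intensity trend, median centring, no probe sets with a suffix for shared sequence, a 2-fold minimum, a threshold of 0.01, and averaging the probe sets of a gene. Promoter sequences were not used here.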

Additional observations from a re-analysis of the deposited data

Results flagged for a closer look

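Of the 124 named genes, 28 had a difference between the mutants, cct-1 minus gct-2, that passed an adjusted p under 0.05 in limma, so that the 2 mutants differed under the same comparison with wild type. Values below are log2 differences of means, first cct-1 minus gct-2 and then, in brackets, cct-1 minus wild type and gct-2 minus wild type. Where values lie under the filter, the size of a difference is uncertain.

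Among genes with a lower mean in both mutants and the lowest in gct-2, the difference between the mutants was 2.49 for AT5G33370 (-2.32, -4.81), 1.28 for AT1G69760 (-1.12, -2.40), 1.22 for AT1G68570 (-0.43, -1.65), 0.95 for AT3G05730 (-1.12, -2.07), 0.90 for GT72B1 (-0.45, -1.35) and 0.81 for AT4G38950 (-1.29, -2.11). It was 0.67 for scpl50 (-0.40, -1.07), 0.61 for HMT-1 (-1.08, -1.69), 0.45 for scpl35 (-0.45, -0.90) and 0.42 for GTR2 (-1.01, -1.42). The cct-1 arrays of scpl50 overlapped with wild type. Both mutants were under the filter for AT5G33370, and gct-2 was for AT1G69760, AT1G68570 and HMT-1. In 3 further genes cct-1 overlapped with wild type and gct-2 was below it, namely ICDH with 1.57 (-0.16, -1.73), BGLU40 with 0.58 (-0.14, -0.72) and ALDH3F1 with 0.49 (-0.01, -0.51). The gct-2 arrays of ICDH and BGLU40 were under the filter.

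Genes lower in both and lowest in cct-1 were AT1G66100, with -1.79 (-7.71, -5.92), AT3G16530, with -1.30 (-3.57, -2.27), AT2G15960, with -1.23 (-1.99, -0.76), and AT5G62360, with -0.66 (-2.65, -1.99). Both mutants were under the filter for AT1G66100 and AT3G16530.

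Genes highest in cct-1 were AT5G42760, with 1.73 (2.19, 0.46), AT3G56290, with 1.58 (2.12, 0.54), IAGLU, with 1.08 (1.54, 0.46), and UGT78D2, with 0.91 (1.33, 0.42). The gct-2 arrays overlapped with wild type for AT5G42760, IAGLU and UGT78D2, and gct-2 and wild type were under the filter for AT5G42760 and IAGLU. Wild type was under it for AT3G56290. Genes highest in gct-2 were AT1G05310, with -1.56 (0.29, 1.85), OASA2, with -1.45 (1.77, 3.23), AT2G16790, with -0.68 (0.62, 1.30), AT3G22850, with -0.34 (0.66, 1.00), and GID1A, with -0.32 (0.10, 0.42). The cct-1 and wild-type arrays were under the filter for AT1G05310 and OASA2, wild type was for AT2G16790, and cct-1 overlapped with wild type for GID1A.

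AT2G07718, with 2.43 (2.00, -0.43), and HYH, with 1.69 (1.54, -0.15), were higher in cct-1 alone of the mutants. The gct-2 arrays of HYH overlapped with wild type, and gct-2 and wild type were under the filter for AT2G07718, whose probe set has a suffix for sequence shared with other genes.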

How the results depend on the processing

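Counts are probe sets called for the mutants against wild type, in all, higher and lower, and then for cct-1 minus gct-2. They were 1689, 862 and 827, and 664. With no filter they were 2722, 1333 and 1389. With array weights 2476 were called, 1330 of them higher, and 1023 between the mutants. A threshold of 0.01 left 700, 332 and 368, and a 2-fold minimum 236, 93 and 143. With the replicate number as a block 1337 were called (675 higher, 662 lower), and 358 between the mutants. Leaving out each array in turn gave 766 to 1663 in all, 389 to 817 higher, 377 to 846 lower and 151 to 647 between the mutants. The lowest counts against wild type came without wild-type replicate 2, and between the mutants without gct-2 replicate 3. The cause was not tested, though each of these fits has 1 array fewer. Median centring turned the split to 779 higher and 875 lower. Without the genotype term the count was 1177. None of the 124 named genes changed direction in any setting, and 81 were called in every fit without 1 array that tested them. Only 106 of the 124 were tested in all 9 such fits, and 64 were tested and called in all 9. A total of 43 lost their call in at least 1 such fit. The 55 calls in the gene lists were also 55 with the mean of each gene's probe sets. Values below the filter may be background.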

Other observations

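A control probe set for 25S ribosomal RNA read 5.62 to 6.8 on the 6 mutant arrays and 6.99 to 7.29 on the 3 wild-type arrays. It was above the filter on 0 of 6 mutant arrays and on 3 of 3 wild-type arrays. Among 19 genes of RNA polymerases and the spliceosome, 2 were called, both higher in the mutants. That is 10.5%, against 16.3% of all tested genes. The median of the 19 was 0.03, and 8 of them were below 0. A link between these genes and the 25S value was not tested. NRPA1, a subunit of RNA polymerase I, which transcribes ribosomal RNA, was at least 1.46-fold higher, with 2 of 3 wild-type arrays above the filter (adjusted p = 0.0196, and 0.0793 without wild-type replicate 1). NRPC2, a subunit of RNA polymerase III, was 1.51-fold higher, with overlap between the groups (adjusted p = 0.0399, and 0.129 without wild-type replicate 1).

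Genes for RALF peptides, small secreted signals that restrain cell growth, and for aldehyde dehydrogenases were families chosen after their values were seen. Over all tested genes 16.3% were called. Of 6 RALF genes 2 were lower (33.3%) and none higher, with no overlap between the groups in 1 of the 2. RALFL34 fell 1.29-fold (adjusted p = 0.0172, and 0.0706 without wild-type replicate 2) and RALFL32 was 1.39-fold lower (adjusted p = 0.0433, and 0.157 without wild-type replicate 1). Of 8 aldehyde dehydrogenase genes 3 were higher and 1 lower (50% called). The largest increase was that of ALDH11A3 at 1.33-fold (11.75 to 11.92 on the mutant arrays and 11.40 to 11.47 in wild type, adjusted p = 0.00287). ALDH3F1 was lower in the mutant mean (log2 difference -0.26, adjusted p = 0.0261, and 0.0945 without wild-type replicate 1), with cct-1 at wild-type levels and gct-2 below them.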
